A study of Gossypium hirsutum with 6 samples.

Results

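In the stem apex of upland cotton (Gossypium hirsutum), 30 assembled transcripts had a higher RPKM in the dwarf mutant than in both the tall-culm mutant and the wild type, which were close to each other. RPKM is a read count per kilobase of transcript and scaled to the mapped reads of a library. The dwarf mutant is Ari1327, called A1 here, the tall-culm mutant Ari3697 is called A3, and A9 is the wild type, Ari971. The methods of the study describe both mutants as products of gamma-ray irradiation of the line Ari971. Stem apexes were taken at the fifth true leaf stage from seedlings grown in a greenhouse, and 1 mRNA library per line was used here. The 30 transcripts, called A1-high below, were chosen by their RPKM values. They had a mean over the libraries of 10 RPKM or more, a ratio of 2 or more of A1 over A9 and of A1 over A3, and a ratio of A3 over A9 within 1.4-fold in either direction. The files list 156846 transcripts, of which 15098 reached the minimum mean, so the A1-high transcripts made up 0.199% of those that could be chosen. Their ratios are given as a description, because the same values chose them and there was no replicate library.

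The stem apex holds the shoot apical meristem, whose dividing cells give rise to leaves, nodes and internodes. Final plant height depends on how many internodes are formed and on how far their cells divide and elongate. Auxin, gibberellin, brassinosteroid and abscisic acid are known to act on these processes, and many dwarf plants carry a defect in the synthesis or the perception of such a hormone. A de novo assembly joins overlapping reads into components, and the transcripts of 1 component can be splice forms, alleles or copies of a gene from the At and Dt subgenomes of this tetraploid species.

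Both labels and methods mention that RNA of the lines was combined before library construction, yet the genotype label ties every library to a single line, and this label was followed. The number of plants behind a library is not given in the sources used here, and differences between lines cannot be told apart from differences between libraries. Summed RPKM was 805778 in A1, against 798674 in A3 and 800227 in A9. Over the transcripts with a mean of 10 RPKM or more, the median ratio was 0.989 for A1 over A9, 0.997 for A1 over A3 and 0.999 for A3 over A9. The files give no gene names, so the stem apex label was not checked against marker genes.

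The level of the A1-high transcripts was moderate. In A1 their RPKM had a lowest value of 15.8, a median of 21.0 and a highest value of 125. The corresponding values were 5.34, 8.69 and 52.1 RPKM in A3, and 4.38, 8.07 and 58.1 RPKM in A9. In A1, 5 of the 30 reached 50 RPKM, 6 lay between 25 and 50 RPKM and 19 were below 25 RPKM. In A3 and A9, 18 and 21 of the 30 were below 10 RPKM. Of the A1-high transcripts 66.7% averaged less than 15 RPKM, against 38.1% of all transcripts that reached the minimum. This mean includes the A1 value that the choice required to be high, so the excess follows in part from the choice. Transcripts below 10 RPKM in both A3 and A9 reached the minimum only through A1. Together they held 0.124% of the summed RPKM in A1, against 0.0461% in A3 and 0.0443% in A9, and the 2 with the highest values accounted for 22.6% of their sum in A1.

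**Figure D1:**
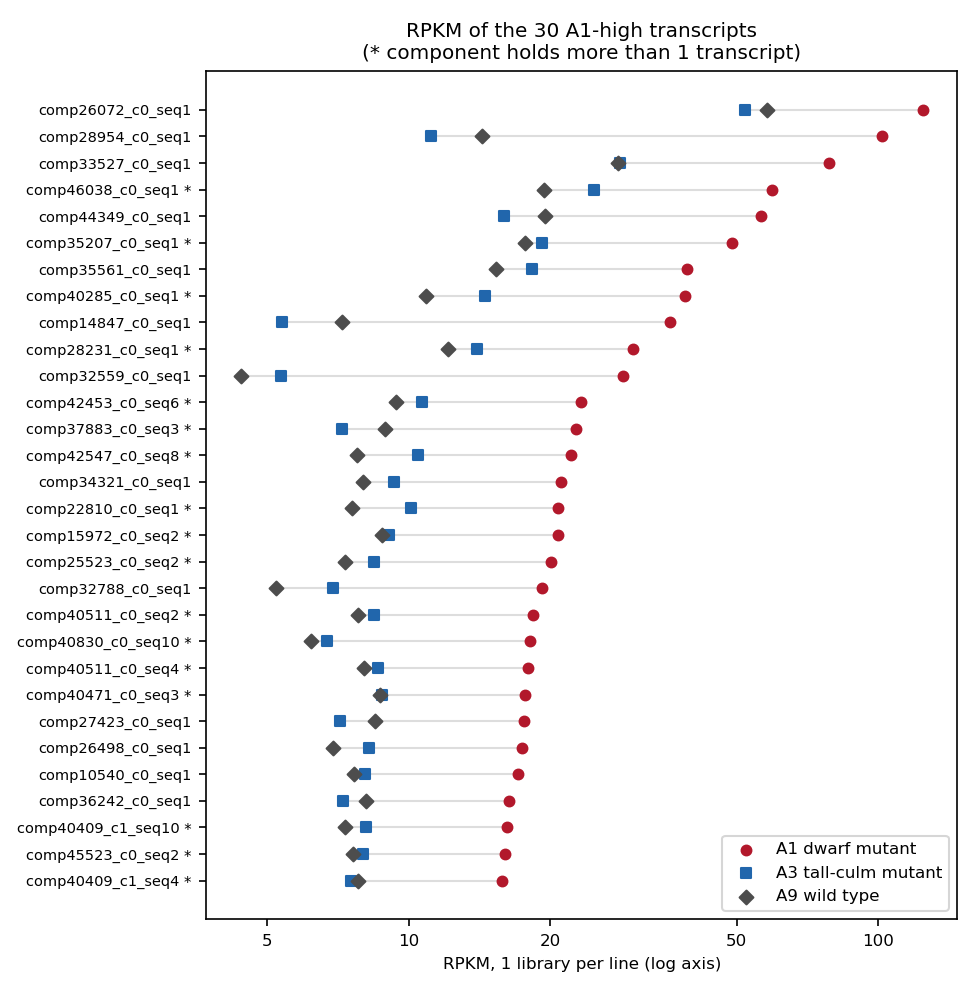
RPKM of each of the 30 A1-high transcripts (rows, ordered by the A1 value) in the libraries of A1 (circles), A3 (squares) and A9 (diamonds), on a log axis. The A1 value lies right of both others in each row, as the choice requires, between 15.8 and 125 RPKM, and the widest gaps are those of comp28954_c0_seq1, comp14847_c0_seq1 and comp32559_c0_seq1.

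The ratio of A1 over A9 ranged from 2.02 to 7.11 with a median of 2.55, and that of A1 over A3 from 2 to 9.10 with a median of 2.28. On the log2 scale the medians were 1.35 and 1.19. The median log2 ratios over all transcripts with a mean of 10 RPKM or more were -0.02 and 0.00. Most of the A1-high transcripts lay near the threshold, as the smaller of both ratios reached 2.5 for 10 of the 30 and 3 for 3. Between A3 and A9 the ratio ranged from 0.744 to 1.35 with a median of 1.08, and the RPKM was higher in A3 for 22 of the 30 transcripts and lower in A3 for 8.

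Counting error adds to these ratios. For 259 transcripts whose length is listed in tables of the study, the product of RPKM and length was mostly a whole multiple of a fitted constant, for 88.7% of 71 usable values in A1, 92.6% of 68 in A3 and 87.1% of 70 in A9. If 1 multiple stands for 1 counted read, the lowest A1-high value would rest on 45.0 reads in A1, against 14.8 in A3 and 13.6 in A9 at 205 bases, the shortest listed length. The relative counting error would then be 14.9% in A1, against 26.0% in A3 and 27.2% in A9. The lengths of the A1-high transcripts themselves are not in the sources used here, and longer transcripts would have a smaller error.

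The transcript with the largest difference was comp28954_c0_seq1. Its RPKM was 102 in A1, against 11.2 in A3 and 14.3 in A9, so that the A1 value was 9.10 times the A3 value and 7.11 times the A9 value. For comp14847_c0_seq1 the RPKM was 36.1 in A1, against 5.37 in A3 and 7.22 in A9, with ratios of 6.72 against A3 and 5.0 against A9. In both, the tall-culm mutant had the lowest value. The transcript comp32559_c0_seq1 had 28.6 RPKM in A1, against 5.34 in A3 and 4.38 in A9, with ratios of 5.35 against A3 and 6.53 against A9, and here the wild type was lowest. Each of these 3 transcripts is alone in its component. No other A1-high transcript reached a ratio of 3 against both lines.

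The highest RPKM was found for comp26072_c0_seq1, at 125 in A1, against 52.1 in A3 and 58.1 in A9, and it was the only A1-high transcript with a mean above 50 RPKM. Its ratios were modest, 2.39 against A3 and 2.15 against A9. The transcript comp33527_c0_seq1 had 78.6 RPKM in A1, against 28.3 in A3 and 28.0 in A9, so that A3 and A9 differed by a ratio of 1.01 while A1 was 2.78 times A3. The transcript comp44349_c0_seq1 had 56.4 RPKM in A1, against 16.0 in A3 and 19.6 in A9, and again A3 was below A9.

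These transcripts are also alone in their components, as were 13 of the 30 (43.3%), against 34.8% of the transcripts with a mean of 10 RPKM or more. Among the other 7 that are alone, comp35561_c0_seq1 was highest, with 39.3 RPKM in A1, against 18.3 in A3 and 15.4 in A9. The ratio of A1 over A9 was largest for comp32788_c0_seq1, at 19.2 RPKM in A1, against 6.88 in A3 and 5.22 in A9, a ratio of 3.69. The remaining 5 had between 16.4 and 21.2 RPKM in A1. They were comp34321_c0_seq1, comp27423_c0_seq1, comp26498_c0_seq1, comp10540_c0_seq1 and comp36242_c0_seq1, and the last had the smallest ratio of A1 over A9 among all 30 transcripts, at 16.4 RPKM in A1, against 7.23 in A3 and 8.10 in A9.

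The values on either side of the threshold differed little. Just inside, comp40409_c1_seq10 had 16.2 RPKM in A1, against 8.11 in A3 and 7.31 in A9, with a ratio of A1 over A3 of exactly 2. The smaller ratio of comp45523_c0_seq2 and of comp40471_c0_seq3 was 2.01. Just outside, comp25796_c0_seq1 had 57.3 RPKM in A1, against 28.1 in A3 and 28.7 in A9, with a ratio of A1 over A9 of 1.995. The next were comp40471_c0_seq4, with a smaller ratio of 1.99, and comp45523_c0_seq3, with 1.98. Both of these belong to a component with an A1-high transcript, so the threshold separated transcripts of the same component. With the libraries scaled to the same upper quartile, 25 of the 30 transcripts passed, and those that did not were comp36242_c0_seq1, comp40409_c1_seq4 and the 3 just inside the threshold.

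The A1-high transcripts are a subset of those with an A1 value at least 2 times that of A9. The larger set held 626 of the 15098 transcripts (4.15%), and a value of A1 at least 2 times that of A3 was found for 201 (1.33%). Of the 626 transcripts, 328 also had an A3 value at least 2 times that of A9, and 225 had a ratio of A3 over A9 from 1.4 to under 2. A ratio of 1/1.4 or less was found for 5. The remaining 68 had A3 within 1.4-fold of A9, and 30 of these had the A1 value at least 2 times that of A3. Most transcripts at least 2 times higher in the dwarf mutant than in the wild type were thus also higher in the tall-culm mutant by 1.4-fold or more. Over the transcripts with a mean of 10 RPKM or more, the median ratio of A3 over A9 was 0.999. The shares of all 15098 transcripts at these cut-offs of A3 over A9 are not given here. The A9 value is the divisor for both mutants, and a transcript that is low in that library counts as higher in both. With 1 library per line, this cannot be told apart from a difference that both mutants have in common.

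**Figure D2:**
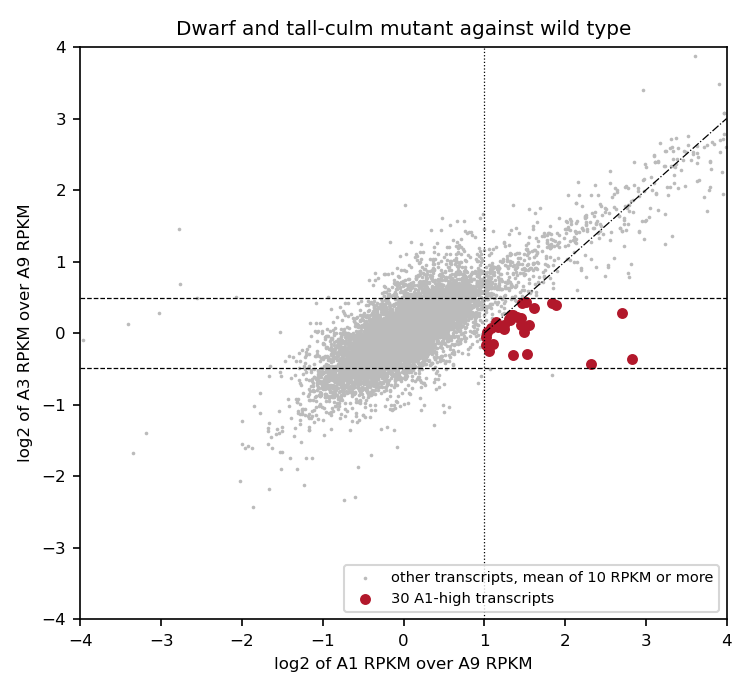
Log2 of A3 RPKM over A9 RPKM against log2 of A1 RPKM over A9 RPKM for transcripts with a mean of 10 RPKM or more (grey; 30 points beyond the axes and 8 transcripts with a value of 0 are not drawn) and the 30 A1-high transcripts (red). The dotted line marks A1 at 2 times A9, the dash-dotted line A1 at 2 times A3 and the dashed lines the 1.4-fold range of A3 over A9. The grey points stretch along the diagonal, and both axes share the A9 values. The red points lie between the dashed lines, right of the dotted line and on or below the dash-dotted line, as the choice requires. They span 1.02 to 2.83 on the A1 over A9 axis and -0.427 to 0.429 on the A3 over A9 axis.

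With the same thresholds, the other lines could be set apart in the same way. The RPKM of A1 alone was lower for 25 transcripts (0.166%). The A3 library alone was higher for 8 and lower for 8 (0.053% each). The A9 library alone was higher for 55 (0.364%) and lower for 84 (0.556%). The A1-high group was therefore larger than its counterpart for A3 and smaller than both groups in which the wild type stood apart. The minimum mean includes the library that stands apart. Higher and lower groups thus draw on transcripts of unlike level in the remaining libraries. These counts, from 1 library per line, were not tested against each other.

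**Figure D3:**
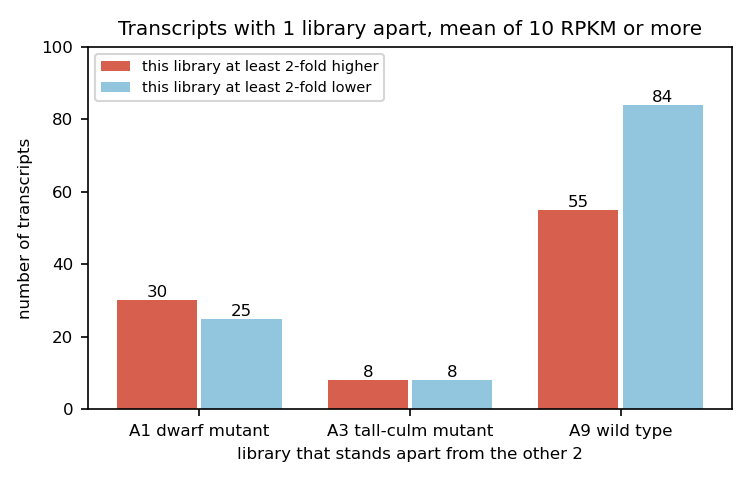
Number of transcripts with a mean of 10 RPKM or more in which 1 library was at least 2-fold higher (red) or lower (blue) than both others, while these were within 1.4-fold of each other. The bars for A1 stand at 30 and 25, those for A3 at 8 and 8, and those for A9 at 55 and 84.

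The other 17 A1-high transcripts belong to 15 components with 2 to 27 transcripts, and reads can move between such sister transcripts when they are mapped. The RPKM was therefore summed over each component. The sum was higher in A1 than in both A3 and A9 for all 17, with ratios of 1.61 to 4.08 against A9 and 1.399 to 3.23 against A3. Each sum contains the A1-high transcript itself, so its direction follows in part from the choice. The sum was at least 2 times that of A9 for 13 of the 17 and at least 2 times that of A3 for 7. The complete set of thresholds was passed by 4 of the 17. For the sums, the median ratio of A3 over A9 was 1.30, against 1.09 for the same 17 transcripts, whose ratio the choice limited to 1.4-fold while that of the sums was free. Without the A1-high transcripts, the rest of the component was higher in A1 than in A9 for 14 of the 15 components and higher in A1 than in A3 for 13. It was at least 2 times that of A9 for 9 and at least 2 times that of A3 for 6. The matching shares over all components are not given here. The rest can share reads with the A1-high transcript, so these counts are a description only. In comp40511_c0 the rest was lower in A1 than in both, at 13.7 RPKM in A1, against 14.1 in A3 and 15.3 in A9. In comp35207_c0 it was lower in A1 than in A3, at 2.33 RPKM in A1, against 2.63 in A3 and 1.28 in A9.

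**Figure D4:**
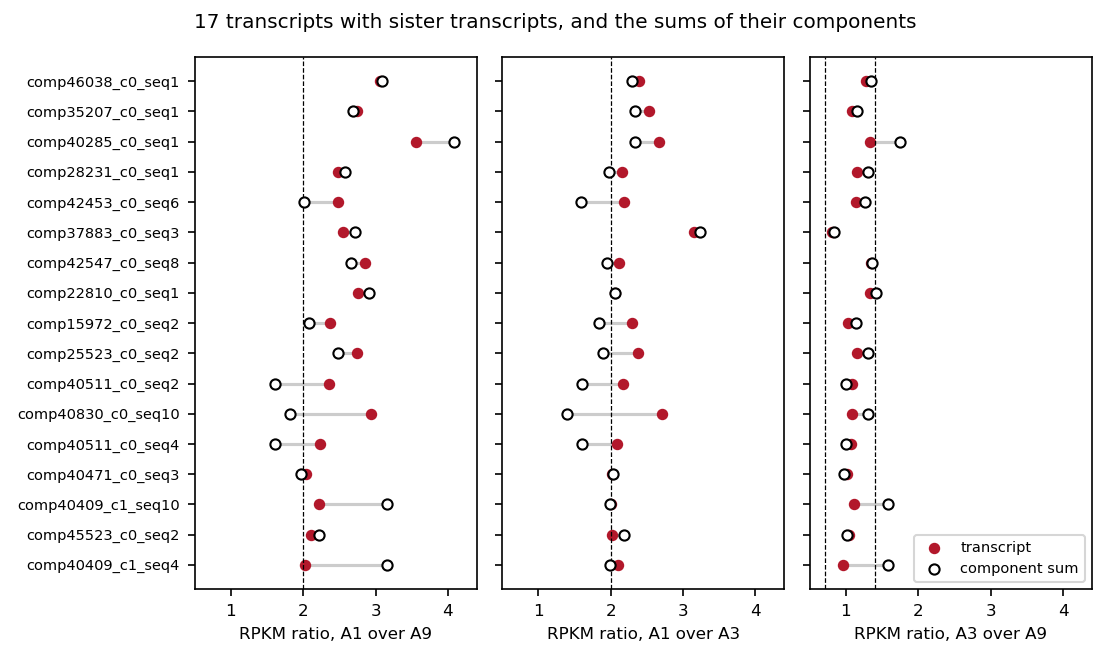
RPKM ratios of the 17 A1-high transcripts that have sister transcripts (red) and of the sums of their components (open circles), for A1 over A9, A1 over A3 and A3 over A9; dashed lines mark the thresholds of 2 and of 1.4-fold. The sums lie between 1.61 and 4.08 for A1 over A9, and several of them cross below 2 for A1 over A3 or above 1.4 for A3 over A9.

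In the first group of components, the sum kept the pattern of the transcript. The component of comp46038_c0_seq1 summed to 103 RPKM in A1, against 44.8 in A3 and 33.3 in A9. The transcript had 59.5 RPKM in A1, against 24.8 in A3 and 19.4 in A9, and its single sister 43.3 RPKM in A1, 19.97 in A3 and 13.9 in A9. Both forms were thus highest in A1. For comp35207_c0_seq1, at 48.8 RPKM in A1, against 19.2 in A3 and 17.7 in A9, the sister was weak and the transcript made up 95.4% of the sum in A1. For comp37883_c0_seq3 the RPKM was 22.7 in A1, against 7.20 in A3 and 8.89 in A9, and the sum gave ratios of 3.23 against A3 and 2.71 against A9. The component of comp45523_c0_seq2 summed to 38.1 RPKM in A1, against 17.5 in A3 and 17.2 in A9.

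In a second group of 5, the sum stayed at least 2 times that of A9 but was under 2 times that of A3. The largest of these was the component of comp42453_c0_seq6, at 105 RPKM in A1, against 65.8 in A3 and 51.9 in A9, ratios of 1.59 and 2.02. The transcript itself had 23.3 RPKM in A1, against 10.7 in A3 and 9.38 in A9. The other sums had ratios against A3 of 1.83 for comp15972_c0_seq2, 1.89 for comp25523_c0_seq2, 1.95 for comp42547_c0_seq8 and 1.98 for comp28231_c0_seq1. The last of these transcripts had 30.1 RPKM in A1, against 14.0 in A3 and 12.1 in A9. For the component of comp40471_c0_seq3 the sum missed the threshold against A9 instead, with a ratio of 1.98. Its 4 transcripts had nearly the same profile, since their A1 values lay between 15.6 and 21.5 RPKM and their ratios of A1 over A9 between 1.92 and 2.04.

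A further 4 transcripts came from components whose sum had a ratio of A3 over A9 above 1.4. The component of comp40285_c0_seq1 summed to 86.5 RPKM in A1, against 37.0 in A3 and 21.2 in A9, and the ratio of A3 over A9 was 1.74. Its A1-high transcript had 38.9 RPKM in A1, against 14.5 in A3 and 10.9 in A9. In its sisters comp40285_c0_seq3 and comp40285_c0_seq2 the A3 value was 1.99 and 2.41 times that of A9. A similar picture was found for comp40409_c1, with 12 transcripts and sums of 120.3 RPKM in A1, against 60.2 in A3 and 38.0 in A9. This component also missed the threshold against A3, with a ratio of 1.997 for the sum. Its A1-high transcripts comp40409_c1_seq10 and comp40409_c1_seq4 had 7.31 and 7.80 RPKM in A9, while the other 10 had 1.19 to 4.91 RPKM in A9 and a ratio of A3 over A9 of 1.42 to 2.74. This contrast follows in part from the choice, which limited that ratio to 1.4-fold for the A1-high transcripts. The sum of the component of comp22810_c0_seq1, with a ratio of A3 over A9 of 1.41, was just outside the range.

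In the last group, sister transcripts differed from each other. The component comp40511_c0 holds 4 transcripts. For comp40511_c0_seq2 the RPKM was 18.4 in A1, against 8.45 in A3 and 7.80 in A9, and for comp40511_c0_seq4 it was 17.95 in A1, against 8.59 in A3 and 8.04 in A9. In comp40511_c0_seq1 it was 7.23 in A1, against 7.03 in A3 and 7.55 in A9, and in comp40511_c0_seq3 6.45, 7.09 and 7.73 RPKM in the same order. The higher level in A1 was thus carried by a pair of transcripts, while the other pair was nearly level in the 3 lines, and the sum was 1.61 times that of A3 and of A9. The pair of A1-high transcripts can share reads and is not independent evidence.

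The transcript comp40830_c0_seq10, at 18.2 RPKM in A1, against 6.71 in A3 and 6.20 in A9, came from the component with the most transcripts, 27, among those that hold an A1-high transcript. It made up 9.34% of the component sum in A1, against 4.83% in A3 and 5.80% in A9. The sum was 194 RPKM in A1, against 139 in A3 and 107 in A9, ratios of 1.399 against A3 and 1.82 against A9. Its ratio of A1 over A9 was 2.93, and on the log2 scale it exceeded that of the sum by 0.69, the largest excess among the A1-high transcripts. A sister, comp40830_c0_seq19, singled out after its values were seen, had 12.9 RPKM in A1, against 0.03 in A3 and 7.84 in A9.

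**Figure D5:**
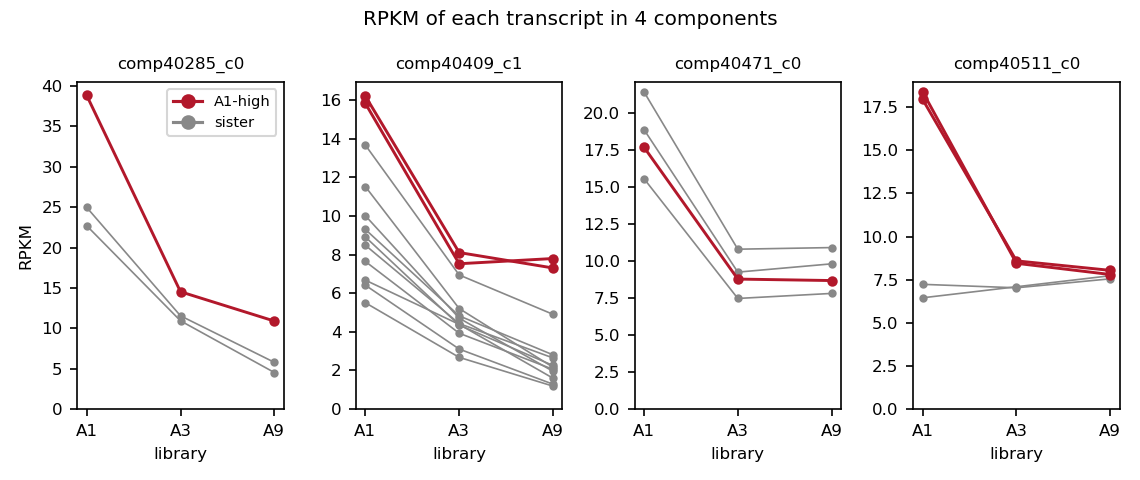
RPKM of each transcript in the A1, A3 and A9 libraries for 4 components drawn after their values were seen, with A1-high transcripts in red and sister transcripts in grey. In comp40511_c0 the red pair stands at 18.4 and 17.95 RPKM in A1 while the grey pair stays near 7, in comp40471_c0 all lines run in parallel, and in comp40409_c1 and comp40285_c0 the gap between A3 and A9 is wider for the grey lines than for the red ones. The choice limited the ratio of A3 over A9 to 1.4-fold for the red lines only.

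Across these 15 components there were 89 sister transcripts that were not A1-high, and 79 of them had a mean of 1 RPKM or more. Of the 79, 72 had a higher RPKM in A1 than in A9 and 7 a lower one, and the matching share over all transcripts is not given here. The A1 value was at least 2 times that of A9 for 51 and at most 0.5 times that of A9 for 0. It was at least 2 times that of A3 for 22 and at most 0.5 times that of A3 for 1. Over all 101694 transcripts with a mean of 1 RPKM or more, the A1 value was at least 2 times that of A9 for 7.37% and that of A3 for 5.32%. Sister transcripts can share reads with the A1-high ones, so their values follow in part from the choice. They can also share reads with each other, and a few components held many of the 79. The component comp40830_c0 held 26 of them, 10 with an A1 value at least 2 times that of A9. The component comp42547_c0 held 14, of which 13 reached that ratio. The counts are thus not those of separate genes. The minimum mean of 10 RPKM was reached by 12 of the 89.

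When the thresholds were applied to component sums in place of transcripts, 37 of 15320 components with a mean sum of 10 RPKM or more passed (0.242%). They included 17 of the 28 components with an A1-high transcript, 13 of them with 1 transcript and 4 with more.

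The function of the A1-high transcripts was not analysed here. The tables of predicted miRNA targets of the study annotate 512 transcripts of the files, and 0 of the 30 A1-high transcripts and 0 of their sisters are among them. No assembled sequence was used, so none is shown. Of the 512 listed transcripts, 121 had a mean of 10 RPKM or more, and the A1 value was at least 2 times that of A9 for 0 and at most 0.5 times that of A9 for 2 of them. Over all 15098 transcripts these shares were 4.15% and 1.4%. Their median log2 ratio of A1 over A9 was -0.11 and the highest 0.91. Among those annotated for a plant hormone, 4 of 10 reached the minimum, with a median log2 ratio of -0.42. The listed genes for the cell wall, which is loosened and rebuilt when cells elongate, had 3 of 7 above the minimum and a median of -0.01. For transcription 9 of 44 and for translation 11 of 18 reached the minimum, with medians of -0.18 and 0.06. For protein kinases 3 of 28 reached it, with a median of 0.40, and for oxidation-reduction 10 of 27, with a median of -0.30. Defence and cell death and cell division had 1 transcript each above the minimum, of 9 and 7 listed, with log2 ratios of -0.41 and -0.71. The median over all 15098 transcripts was -0.02. Each of these 8 lists had 0 transcripts with a ratio of 2 or more, which is uninformative for lists of 1 to 11 transcripts. Transcripts outside these tables carry no annotation here, so the lists say nothing of what the A1-high transcripts encode.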

How the data were processed

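Per the methods, adaptors and reads of low quality were removed and transcripts were assembled de novo with Trinity. For each line the authors deposited RPKM values, to 2 decimals, under transcript names that the lines share. The read mapper and the counting of reads that match several transcripts are not given in the sources used here. The small RNA samples were not analysed here.

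The values were joined by transcript name and compared as whole hundredths, so that a ratio of exactly 2 passed. A value of 0 in A3 or A9 gives no ratio of A3 over A9, and 0 transcripts with a mean of 10 RPKM or more were at 0 in both. A component is the name without its final sequence number. No test across transcripts was run, because there was 1 library per line and the ratios chose the transcripts. The transcripts and annotation lists were chosen with earlier results of these data known. The rule for naming took the 8 highest in A1, the 8 with the largest smaller ratio, the 3 just inside and 3 just outside the threshold, any listed in the study's tables (0), those of the 5 components with most members, and the 5 closest to and 5 farthest above their component sum. Transcripts outside this rule are named as such or complete the 30. Annotation came from the study's tables, read by keyword. Read numbers were inferred from products of RPKM and listed length under 1500, with the constant between 40 and 110 that gave the most nearly whole multiples and a tolerance of 0.1. The share of whole multiples was computed on the values that chose this constant. The alternatives were other minimum values, thresholds and ranges, added RPKM, scaling, and other definitions of a component. The choice rule and the constant search were tested on simulated data (random seed 1). The simulation planted rises larger than most of those here and had no reads shared between transcripts. It therefore checks the computation only, not how the choice behaves on these data. Computation used Python 3.11.15, numpy 2.4.6, pandas 2.3.3 and matplotlib 3.10.9.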

Additional observations from a re-analysis of the deposited data

How the results depend on the processing

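No paired analysis was possible because each line has a single mRNA library. The number of A1-high transcripts, 30, depended most on the minimum level and on the ratio. It was 100 at a minimum mean of 5 RPKM, 896 at 1 RPKM, 1781 without a minimum and 8 at 20 RPKM. It was 173 at a ratio of 1.5 and 3 at a ratio of 3, and 53 when A3 was allowed within 2-fold of A9. With the libraries scaled up to an equal RPKM sum it was 46, with 27 of the 30 among them. That scaling also raises all values, so that more transcripts reach the minimum. Of the 30 transcripts, 30 were kept with scaling by the median ratio, 25 with the upper quartile, 29 with 0.1 RPKM and 20 with 1 RPKM added, and 23 with a narrower range of A3 over A9. The median ratio scaling divided A1 by 0.9885, A3 by 0.9991 and A9 by 1.0. It raised both A1 ratios of every transcript, so the 2-fold thresholds could remove none of the 30 there. Under the 3 scalings and both additions, 20 were kept each time. With the narrower range, the ratio of 3 and the minimum of 20 RPKM also required, 8 settings, 0 of the 30 were kept in all. The median log2 ratio of A1 over A9 was 1.28 with 1 RPKM added and 1.37 with the median ratio scaling, against 1.35, and that of A1 over A3 1.11 and 1.21, against 1.19. For the component sums of all 30 transcripts the median log2 ratio of A1 over A9 was 1.31 with 1 RPKM added, against 1.39. A sum was entered once per A1-high transcript, and 13 of the 30 sums are the transcript itself. The number of passing components was 36 or 35 under the other definitions, and 14 to 18 transcripts, against 17, had a component sum that passed. Of these 17, 13 are alone in their component, so that their sum is the chosen transcript itself. The other 4 are those with sister transcripts.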

Other observations

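Of the 37 components whose sums passed the thresholds, 20 held no A1-high transcript. They have 2 to 39 transcripts each, and in 18 of them no single transcript had a mean of 10 RPKM, so the sum passed where its parts could not. The highest sum in A1 was that of comp34364_c0, with 88.5 RPKM in A1, against 24.6 in A3 and 33.6 in A9. The largest ratios were those of comp21026_c0, with 41.3 RPKM in A1, against 8.11 in A3 and 6.33 in A9. Among these 20, the component with the most transcripts, comp42238_c0, summed to 33.3 RPKM in A1, 13.9 in A3 and 14.2 in A9, while its highest transcript had a mean of 0.693 RPKM. These components were named after their values were seen, and no annotation was used for them.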
